A study of Rattus norvegicus with 36 samples.

Results

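The nuclear-encoded subunits of the mitochondrial respiratory chain and the ATP synthase were followed in injured and naive vocal fold (VF) mucosa and in cultured VF fibroblasts of the rat. Members were genes whose single annotated symbol begins with any of 12 prefixes: Nduf (complex I), Sdha, Sdhb, Sdhc and Sdhd (complex II), Uqcr (complex III), Cox4i, Cox5, Cox6, Cox7 and Cox8 (complex IV) and Atp5 (ATP synthase). The prefixes also take in assembly factors such as Ndufaf1 and Sdhaf2. With 1 probe set per gene, 90 of the 14217 genes on the array were members. By role, 6 were core subunits of complex I and 28 accessory subunits, 4 belonged to complex II, 7 to complex III, 17 to complex IV, 9 to the F1 head and stalk of the ATP synthase and 6 to its Fo ring and membrane part. Another 12 were assembly or accessory factors, and Cox6c-ps1, a Cox6c-like locus, was left without a class.

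All animals were male Fischer 344 rats, 120 days old when the experiment began, with no transgene in any group. Post-injury (PI) rats had the mucosa stripped from both VFs, and the injured mucosa was collected 3, 14 or 60 days later, at 123, 134 or 180 days of age. Control rats were naive and age-matched. Each mucosa array held the pooled tissue of 4 rats, so that differences between single rats cannot be seen. There were 5 PI arrays at each time and 3, 3 and 2 control arrays at 3, 14 and 60 days. Another 13 arrays held primary fibroblasts at passage 1, each culture grown from the mucosa of 1 rat killed at 180 days of age: 3 from naive VFs, 4 from 60-day scar, 3 from scar exposed for 1 h to 50 nM siRNA against gp46 (a collagen chaperone) and 3 from scar exposed in the same way to scramble siRNA, both harvested 24 h later. All values are log2 intensities, and every difference is a difference of log2 intensities. Probe sets respond differently to their targets, so levels are compared between arrays and never between genes.

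The respiratory chain passes electrons from NADH (complex I) and succinate (complex II) through complex III to oxygen at complex IV, and the proton gradient this builds drives the ATP synthase. Most subunits are made in every cell with mitochondria, but complex IV has forms that replace each other between tissues: COX6A2, COX7A1 and COX8B are the forms of heart and skeletal muscle, COX6B2 is known from testis, and COX4I2 and NDUFA4L2 are forms linked to low oxygen. Muscle fibers are rich in mitochondria. The VF mucosa lies on the thyroarytenoid muscle.

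The promoters of the members are known for sites of the factors NRF1 and GABPA, an ETS factor, whereas muscle genes often carry E-boxes and MEF2 sites. The 250 bases before the start of transcription were found for 82 of the 90 members in RefSeq (build GRCr8), counted from the start of 1 transcript per gene. The letters GCGCANGCG, like an NRF1 site, stood on either strand in 18 of these (22.0%, against 5.09% of 33469 windows of all genes), and CCGGAAG, like an ETS site, in 24 (29.3% against 7.27%). The other letters searched were less unequal: AAGATGGC (YY1-like) stood in 2.44% of members and 1.63% of all windows, AAGGTCA (like the site of estrogen-related receptors) in 7.32% and 3.99%, CTAAAAATA (MEF2-like) in 1.22% and 0.442%, the E-box CAGCTG in 9.76% and 12.0%, and ACGTG (hypoxia-like) in 23.2% and 16.6%. Both strands were searched, no motif contains another, and the motifs were chosen after the values had been seen. A match describes the letters only and is not a bound site. The sequences shown are the windows of the 3 muscle forms of complex IV, which had the largest falls at 3 days, and of the Sdha and Sdhb subunits of complex II. Capitals mark E-box and MEF2-like letters in the muscle forms, NRF1-like letters in Sdha and ETS-like letters in Sdhb. They lie at chr1:192219717-192219966 (minus strand) for Cox6a2, chr1:94568966-94569215 (plus) for Cox7a1, chr1:205408274-205408523 (minus) for Cox8b, chr1:30764303-30764552 (plus) for Sdha and chr5:158547684-158547933 (plus) for Sdhb, 5′ to 3′. The windows of Cox6a2 and Cox7a1, and part of that of Sdhb, lie within the span annotated for the gene, so that the start used is not the outermost one.
Cox6a2: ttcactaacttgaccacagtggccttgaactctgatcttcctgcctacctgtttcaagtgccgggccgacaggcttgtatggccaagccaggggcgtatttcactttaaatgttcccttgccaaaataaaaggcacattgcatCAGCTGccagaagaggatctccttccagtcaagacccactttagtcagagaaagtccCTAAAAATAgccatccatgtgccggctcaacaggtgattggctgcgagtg
Cox7a1: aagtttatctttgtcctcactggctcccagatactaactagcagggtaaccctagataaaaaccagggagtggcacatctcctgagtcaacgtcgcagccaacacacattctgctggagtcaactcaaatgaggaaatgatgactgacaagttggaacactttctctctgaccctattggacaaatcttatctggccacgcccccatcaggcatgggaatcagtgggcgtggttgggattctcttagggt
Cox8b: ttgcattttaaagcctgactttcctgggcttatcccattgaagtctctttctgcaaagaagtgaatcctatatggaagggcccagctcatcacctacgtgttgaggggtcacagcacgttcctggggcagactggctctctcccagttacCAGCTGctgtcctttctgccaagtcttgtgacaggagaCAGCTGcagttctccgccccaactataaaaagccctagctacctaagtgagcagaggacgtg
Sdha: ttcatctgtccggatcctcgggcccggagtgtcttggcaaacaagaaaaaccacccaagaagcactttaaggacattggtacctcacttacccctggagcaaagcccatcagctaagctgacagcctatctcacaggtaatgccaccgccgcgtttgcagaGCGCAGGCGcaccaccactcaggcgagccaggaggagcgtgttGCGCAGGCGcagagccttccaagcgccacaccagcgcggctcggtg
Sdhb: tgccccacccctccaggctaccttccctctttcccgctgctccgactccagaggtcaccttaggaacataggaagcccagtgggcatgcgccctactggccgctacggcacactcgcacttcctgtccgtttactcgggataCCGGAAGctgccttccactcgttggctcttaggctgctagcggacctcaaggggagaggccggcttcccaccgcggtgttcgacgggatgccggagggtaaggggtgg

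The Cox8b window held 2 E-boxes, the Cox6a2 window 1 E-box and 1 MEF2-like match, and the Cox7a1 window none of these letters. Sdha held 2 NRF1-like matches and Sdhb 1 ETS-like match.

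The tissue labels were checked against marker genes. Mucosa held the keratins Krt5 and Krt14 of stratified epithelium at means between 13.01 and 13.59 in every mucosa group, against 5.73 to 7.32 in the fibroblast groups, where Col1a1 of type I collagen lay between 13.75 and 14.41. Mature skeletal muscle was present in every mucosa array, with Ckm, muscle creatine kinase, at group means between 13.3 and 14.44. In mucosa the members are therefore measured in a mixture of epithelium, stroma and muscle. In such bulk tissue fewer cells of a type and less RNA per cell cannot be told apart. The cultures had Ckm at group means of 4.88 to 6.81. The muscle-related gene Myh3, however, ranged from 7.46 to 11.63 in naive and from 6.3 to 13.34 in untransfected scar cultures. It ranged from 6.44 to 8.06 after gp46 siRNA, from 6.79 to 8.37 after scramble siRNA and from 6.02 to 6.51 in control mucosa.

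Of the mucosa arrays, 3 were treated as standing apart: PI replicate 5 at 3 days, control replicate 3 at 14 days and PI replicate 4 at 60 days. Control replicate 2 at 3 days was low in the members as well and was not among the 3. Against the mean of its own group its member median was -0.21, with 85 members below that mean. For control replicate 3 at 14 days these values were -0.22 and 68. Over all genes their deviations from the group means went together: r (Pearson) was 0.61, 0.6 and 0.45 between these arrays, across genes, which are not independent replicates. Against the mean of the other arrays of the same group, 82, 68 and 82 of the 90 members were lower on them, with medians of -0.9, -0.33 and -0.66, and 68 members were lower on all 3. Sdha, Atp5f1a, Atp5f1b, Uqcrc2, Ndufs1, Ndufaf1 and Ndufaf4 were higher on all 3. The median SD of the members was 0.41, 0.3 and 0.22 in the groups that hold them (3-day PI, 60-day PI and 14-day control), against 0.14, 0.21 and 0.11 over all genes. It was 0.21 in the 3-day controls, which hold none of them, 0.15 and 0.08 in the other mucosa groups and 0.05 to 0.09 in the fibroblast groups. Counts of called members, and other values for some members only, are given with and without these 3 arrays.

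At 3 days PI the members were mainly lower than in control mucosa. In total 22 fell and 2 rose, which is 24.4% and 2.22% of the 90, whereas 12.0% of all genes were called lower and 14.6% higher. Genes were called with limma at a Benjamini-Hochberg adjusted p under 0.05 over all 14217 genes. The median difference of the members was -0.37, against 0.01 for all genes, and 83 members had a difference below 0. PI and control arrays did not overlap for 26 members (28.9%), a share close to the 31.2% of all genes. Without the 3 arrays that stood apart, 37 members fell and 2 rose (17.1% of all genes called lower), all 24 called members were still called, and the median was -0.22. The count was 7 without control replicate 1, 14 without control replicate 3 and at most 30 without any single array. It was 5 with the lognormal-normal model, a mixture model like that of the study's methods. That model called Cox7a1, Ndufa9, Cox5a, Cox6b2 and Ndufaf1. For these settings the share of all genes called is not given.

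**Figure D1:**
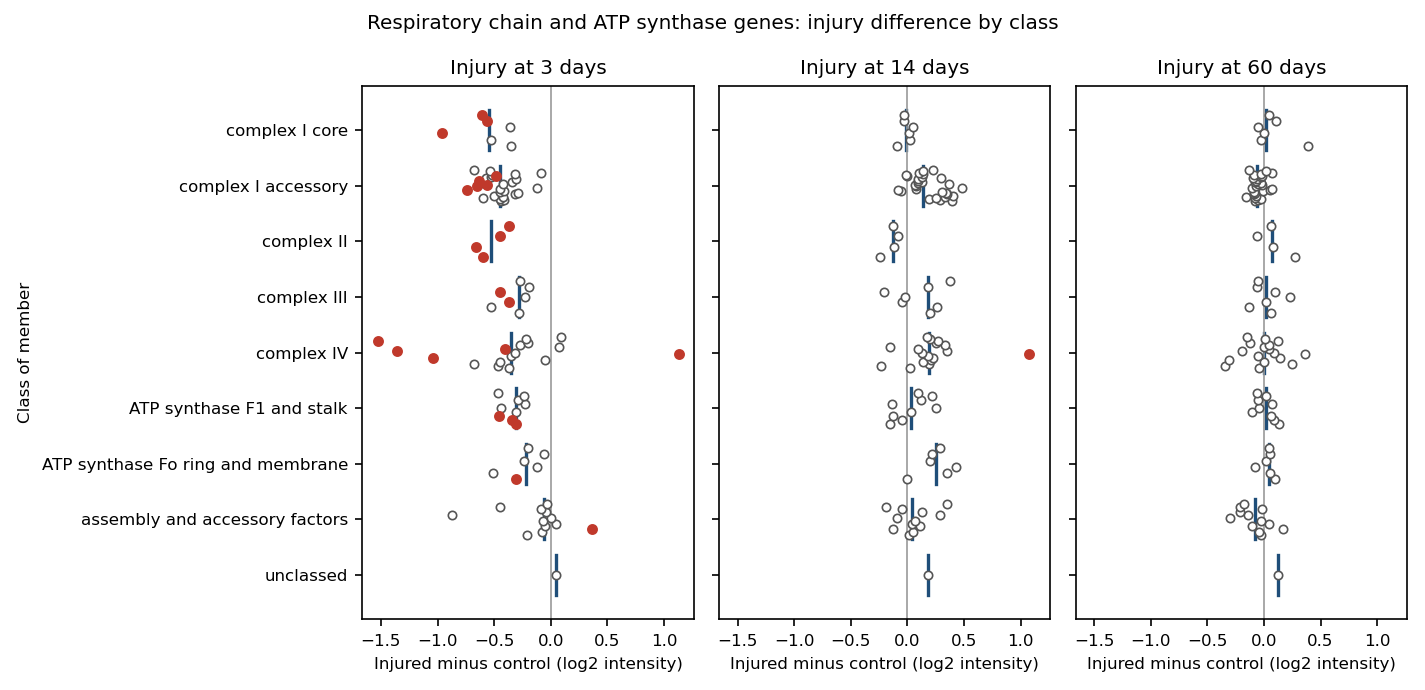
Difference between PI and control mucosa (x axis, log2 intensity) of each member, by class (y axis), at 3, 14 and 60 days. Red points passed the limma test, open points did not, and blue bars are class medians; at 3 days complex II is the class with all 4 members in red, and at 14 days the single red point is Cox6b2.

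The largest falls were those of the 3 muscle forms of complex IV. Cox8b stood at 12.29, 11.72, 12.07, 11.16 and 10.16 in PI replicates 1 to 5 and at 13.39, 12.37 and 13.27 in the controls. All 5 PI arrays lay below all 3 controls, and the mean was 2.89-fold lower (difference -1.53, SE 0.36, limma adjusted p = 0.00302). Cox7a1 stood at 8.67, 8.74, 8.48, 8.43 and 7.49 in the PI arrays and at 9.88, 9.41 and 9.87 in the controls. It was 2.57-fold lower, again with no overlap (difference -1.36, SE 0.38, limma adjusted p = 0.01). Cox6a2 stood at 12.46, 11.85, 12.25, 11.44 and 10.53 in the PI arrays and at 13.1, 12.16 and 12.99 in the controls. Here PI replicates 1 and 3 lay above control replicate 2 (difference -1.04, SE 0.33, limma adjusted p = 0.0212), and the call was lost without control replicate 1 (difference -0.87, limma adjusted p = 0.119). Without the 3 arrays the differences were -1.2, -1.14 and -0.75 for Cox8b, Cox7a1 and Cox6a2, each still called.

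The common forms of the same subunits moved less. Cox8a differed by -0.2 and Cox6a1 by -0.05 (limma adjusted p = 0.511 and 0.901), and Cox4i1, the common form of the subunit whose other form is Cox4i2, by -0.37 (adjusted p = 0.0562). Without the 3 arrays Cox4i1 was called lower (-0.22, limma adjusted p = 0.0142). Cox4i2 differed by -0.47 (adjusted p = 0.121) and Ndufa4l2 by 0.09, neither of them called. The within-array difference of a muscle form and its common form was then compared between PI and control arrays, which shows unequal change only. It changed by -1.33 for Cox8b against Cox8a, with the arrays of both groups apart (PI -1.93 to -0.75, control -0.66 to 0.35; exact permutation test, two-sided, p = 0.0357, the smallest that 5 against 3 arrays allow). For Cox6a2 against Cox6a1 it changed by -0.99 with overlap (exact p = 0.107). Over the 15 such tests, 5 pairs at 3 times, none passed after Benjamini-Hochberg adjustment, with adjusted p of 0.179 for Cox8 and 0.23 for Cox6a. Cox7a2, the common form of Cox7a1, had only a probe set shared with another symbol and was not tested.

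**Figure D2:**
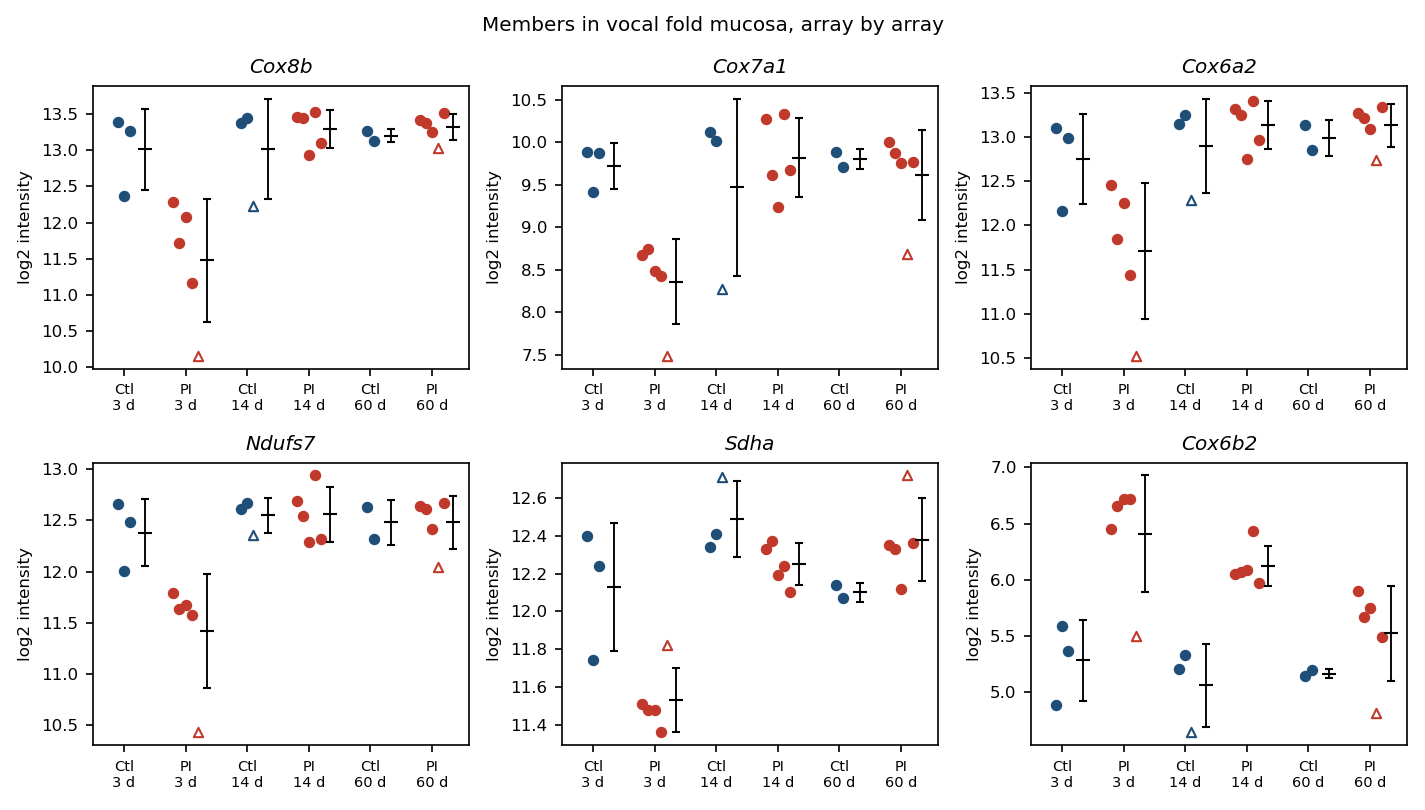
Log2 intensity (y axis) of 6 members in each mucosa array, by group (x axis; Ctl, control). Points are arrays, open triangles are the 3 arrays that stood apart, and black bars give the group mean and SD; the PI group at 3 days has the lowest mean of the 6 groups for Cox8b, Cox7a1, Cox6a2, Ndufs7 and Sdha and the highest for Cox6b2.

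Members outside the muscle forms fell too, among them the catalytic subunits. All 4 subunits of complex II, which also serves the citric acid cycle, were lower. Sdha, its flavoprotein, stood at 11.51, 11.48, 11.48, 11.36 and 11.82 in the PI arrays and at 12.4, 11.74 and 12.24 in the controls, a difference of -0.6 (SE 0.14, limma adjusted p = 0.00302). PI replicate 5 alone lay above the lowest control. Sdhb, the iron-sulfur subunit, stood between 11.32 and 12.07 in the PI arrays and between 12.21 and 12.78 in the controls, without overlap (difference -0.66, SE 0.17, limma adjusted p = 0.00524). The membrane anchors Sdhc and Sdhd fell by 0.45 (SE 0.13) and 0.37 (SE 0.1), with limma adjusted p of 0.0117 and 0.00877. Without control replicate 1 Sdha alone was still called, with limma adjusted p of 0.0513, 0.103 and 0.0804 for Sdhb, Sdhc and Sdhd, and without control replicate 3 Sdhc was not called either. All 4 were called without the 3 arrays, with differences of -0.67, -0.52, -0.37 and -0.35 for Sdha, Sdhb, Sdhc and Sdhd. A second probe set of Sdhd differed by -0.48. Sdha was the reference gene of the study's qRT-PCR, and the paper cites earlier work that found its expression stable in this injury model. The array values give its place among all RNA of the mixed tissue.

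In complex I, 3 of the 6 core subunits and 5 of the 28 accessory subunits fell and none rose, with class medians of -0.55 and -0.45. The counts were 5 and 12 without the 3 arrays, with medians of -0.43 and -0.25. Of all genes 12.0% were called lower, and 17.1% without the 3 arrays. Whether a class differs from these shares was not tested. Ndufs7, which carries the last iron-sulfur cluster before ubiquinone, stood at 11.79, 11.63, 11.67, 11.58 and 10.43 in the PI arrays and at 12.66, 12.01 and 12.48 in the controls. The groups did not overlap, and the mean was 1.95-fold lower (difference -0.96, SE 0.24, limma adjusted p = 0.00505). Ndufv1 and Ndufv2 of the NADH-binding module fell by 0.56 (SE 0.12) and 0.61 (SE 0.19), with limma adjusted p of 0.00147 and 0.0187. Among accessory subunits, Ndufa9 fell by 0.74 (SE 0.15, limma adjusted p = 0.00105), Ndufb10 by 0.65 (SE 0.22, adjusted p = 0.0305) and Ndufb5 by 0.63 (SE 0.2, adjusted p = 0.0208). A second, dimmer probe set of Ndufa9 differed by -0.97. Without the 3 arrays Ndufs7, Ndufv1 and Ndufv2 differed by -0.71, -0.5 and -0.46. Ndufa9, Ndufb10 and Ndufb5 then differed by -0.66, -0.45 and -0.45, and all of these were still called.

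In complex III, 2 of 7 subunits fell. Uqcrfs1, the Rieske iron-sulfur protein, fell by 0.45 (SE 0.11, limma adjusted p = 0.00393) and the core protein Uqcrc1 by 0.37 (SE 0.1, adjusted p = 0.00599). In the ATP synthase, 3 of the 9 F1 and stalk subunits fell: Atp5f1c, the rotating gamma subunit, by 0.46 (SE 0.13, limma adjusted p = 0.0097), the catalytic beta subunit Atp5f1b by 0.34 (SE 0.09, adjusted p = 0.00665) and the alpha subunit Atp5f1a by 0.31 (SE 0.11, adjusted p = 0.0451). Of the 6 Fo subunits, Atp5mc3, a gene of the c-ring, fell by 0.31 (SE 0.09, limma adjusted p = 0.015). Class medians were -0.28 for complex III, -0.35 for complex IV, -0.31 for F1 and stalk and -0.22 for Fo. Without the 3 arrays 4 members fell in complex III, 6 in complex IV, 4 in F1 and stalk and 1 in Fo. The medians were then -0.31, -0.17, -0.24 and -0.04. The shares of all genes called lower were again 12.0% and, without the 3 arrays, 17.1%.

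Of the 12 assembly and accessory factors none fell and 1 rose, and their median was -0.06, whereas without the 3 arrays 1 fell and 1 rose (median -0.01). With all arrays 12.0% of all genes were called lower and 14.6% higher. Whether the assembly and accessory factors differ from the subunits was not tested. Ndufaf1, which helps to assemble the membrane arm of complex I, rose by 0.36 (SE 0.11, limma adjusted p = 0.0232), from 6.96, 6.86 and 7.22 in the controls to 7.36, 7.26, 7.37, 7.38 and 7.47 in the PI arrays, which all lay above them. The call was lost without control replicate 1 (0.33, limma adjusted p = 0.0914) and without control replicate 2 (0.28, adjusted p = 0.121). Ndufaf8 differed by -0.87 and was not called (SE 0.34, limma adjusted p = 0.0614), but without the 3 arrays it was called lower (-0.56, SE 0.12, adjusted p = 0.00131).

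Cox6b2, the form of subunit VIb known from testis, was the member with the largest rise. It stood at 4.88, 5.59 and 5.36 in the 3-day controls and at 6.45, 6.66, 6.72, 6.72 and 5.5 in the PI arrays, of which replicate 5 alone lay within the control range. The mean was 2.19-fold higher (difference 1.13, SE 0.26, limma adjusted p = 0.00241) and the difference was 1.36 without the 3 arrays. Within arrays, Cox6b2 rose against Cox6b1, the common form, by 1.48, with PI (-6.25 to -5.94) and control arrays (-8.0 to -7.15) apart (exact p = 0.0357, adjusted p = 0.179). The mean of Cox6b2 was among the lowest 30% of all genes.

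At 14 days PI no member was called lower. Differences were above 0 in 65 members and below 0 in 25. All 4 subunits of complex II were among the 25, at -0.24 for Sdha, -0.12 for Sdhb, -0.08 for Sdhc and -0.13 for Sdhd. Of the 90 members 1 was called, Cox6b2, against 3.03% of all genes. The median difference was 0.12, and -0.01 both with array weights and without the 3 arrays, of which control replicate 3 is in this comparison. Cox6b2 stood at 6.05, 6.07, 6.09, 6.43 and 5.97 in the PI arrays and at 5.2, 5.33 and 4.64 in the controls, without overlap (difference 1.07, SE 0.26, limma adjusted p = 0.0244). The call was lost without PI replicate 4, control replicate 1 or control replicate 3, and for want of the gene itself when dim genes were left out. Cox8b was back at 12.94 to 13.53, with the controls between 12.23 and 13.45 (difference 0.27, limma adjusted p = 0.895). At an unadjusted p under 0.05, 2 members passed.

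At 60 days PI, in the mature scar, no member was called by limma or by the lognormal-normal model, and none had an unadjusted p under 0.05. In all, 0.0563% of genes were called. The differences lay between -0.34 for Cox4i2 and 0.39 for Ndufs1, with a median of -0.03, and the lowest adjusted p was 0.558. Without PI replicate 4, the array that stood apart, the median was 0.1 and again no member was called. The labels and the methods differ in the number of PI and control arrays at this time. PI replicate 4 had an immature muscle median of 0.01 relative to the control arrays, where the other PI arrays had 0.33 to 0.64 and the 60-day controls 0.1 and -0.01. The muscle-related gene Myh3 stood at 6.61 to 7.86 over all 60-day PI arrays and at 6.07 to 6.1 in the 60-day controls. Its highest value in any control array was 6.51. Whether an array was mislabelled was not tested. Cox8b differed by 0.12 and Cox6b2 by 0.36 (limma adjusted p = 0.947 and 0.775). With 2 control arrays the 95% interval of the Cox6b2 difference ran from -0.25 to 0.98 and that of Sdhd from -0.18 to 0.3. The 95% interval of Sdhd at 3 days, -0.58 to -0.16, overlapped the latter. Sdhd was not called in the direct limma test of 60 against 3 days.

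The difference between times was tested by itself. The PI effect at 14 days exceeded that at 3 days in 1 member, Cox8b (1.81, limma adjusted p = 0.0307), where 8.01% of all genes passed. At 60 days against 3 days 6 members passed and 13.5% of all genes: Cox8b (1.66, limma adjusted p = 0.049), Sdha (0.87, 0.00917), Ndufa9 (0.8, 0.0271), Ndufv1 (0.67, 0.018), Uqcrfs1 (0.56, 0.0311) and Atp5f1b (0.43, 0.0359), each a higher PI effect at 60 days. Without the 3 arrays the counts were 7 and 29, where 16.5% and 24.9% of all genes passed. The Cox8b difference at 14 against 3 days was not called without PI replicate 4 or control replicate 3 at 14 days, or without PI replicate 4 or control replicate 1 at 3 days. At 60 against 3 days the count was 0 without control replicate 2 at 60 days, 1 without control replicate 1 at 3 days and 16 without control replicate 2 at 3 days. Between 60 and 14 days no member passed with limma (1 at an unadjusted p under 0.05) and 0.0774% of all genes did.

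Across the PI groups alone, 47 of the 90 members (52.2%) changed with time by limma's moderated F test, against 38.5% of all genes, and 71 without the 3 arrays, against 50.1%. All 6 core subunits of complex I and all 4 of complex II were among the 47, with 13 of 28 accessory subunits of complex I, 5 of 7 in complex III, 10 of 17 in complex IV, 6 of 9 and 2 of 6 in the parts of the ATP synthase and 1 of 12 assembly factors. In 46 of the 47 the 3-day mean was the lowest of the 3. Their median rise from 3 days was 0.64 at 14 days and 0.55 at 60 days. In the control groups the same members differed by 0.12 and 0.06. The 47 were picked on these same PI arrays, which favors large changes in the PI groups. Over all 90 members the 3-day mean was lowest in 82, and the median rises were 0.48 and 0.44. In the control groups the 90 differed by -0.01 and 0.06. Across the control groups no member was called by the F test (3 at an unadjusted p under 0.05), with 0.0141% of all genes.

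The level of the members by array is set beside the muscle markers in the plot of array medians. Mature skeletal muscle markers were lower at 3 days PI: 18 of the 29 measured fell, none rose, and the median difference was -0.74. Their summed level, as log2 of the summed intensity, was 16.54 to 17.29 in the PI arrays and 17.09 to 17.82 in the controls, and none of the defining markers was absent. Relative to the mean of the 8 control arrays, the muscle median was -0.49, -1.16, -0.73, -1.44 and -1.01 in PI replicates 1 to 5 at 3 days, where the members' median was -0.14, -0.25, -0.25, -0.28 and -1.04. Control replicate 2 at 3 days had -0.87 for muscle and -0.25 for the members, like the PI arrays. At 14 and 60 days, 2 and 0 of the muscle markers were called (by limma; at 60 days 4 had an unadjusted p under 0.05 and the lognormal-normal model called 0). In the array of 14 days (control replicate 3) and that of 60 days (PI replicate 4) that stood apart, the muscle median was 0.42 and 0.2, above the control mean, with the members at -0.21 and -0.47. The part of muscle in the members' falls was not tested.

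**Figure D3:**
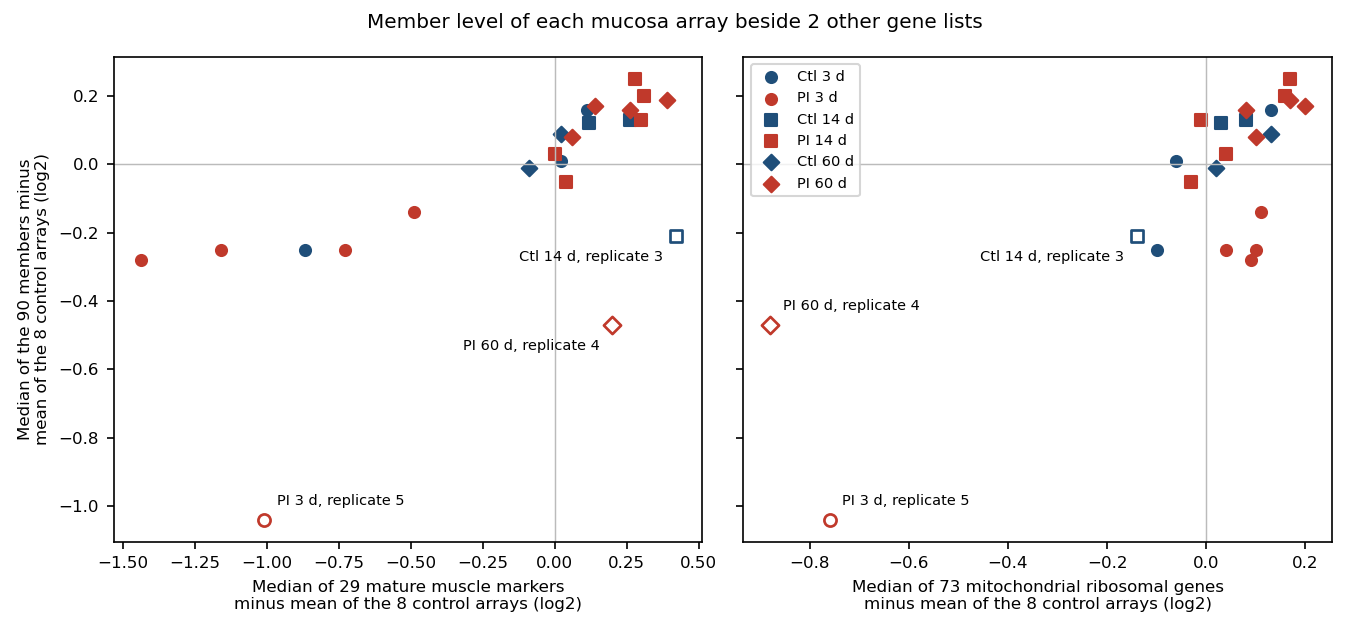
Median of the 90 members in each mucosa array (y axis, log2 relative to the mean of the 8 control arrays) against the median of 29 mature muscle markers (left) and 73 mitochondrial ribosomal genes (right). Open symbols are the 3 arrays that stood apart; the other 4 PI arrays at 3 days lie low on the muscle axis but between 0.04 and 0.11 on the ribosomal axis.

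Other cell types moved at 3 days as well. All 9 measured markers of immature muscle rose (median 3.1), as did 8 of 10 of dividing cells (1.76), 4 of 5 of neutrophils (2.5), 3 of 5 of ciliated cells (0.83), 2 of 7 of endothelium (0.07) and 1 of 6 of macrophages (0.04). Of the 8 fibroblast markers 5 rose and 1 fell (0.55), of 11 epithelial markers 2 rose and 1 fell (0.05), and of 8 gland markers 2 rose and 3 fell (-0.24). Among 8 adipocyte markers 2 fell (-0.02), and none of 5 cartilage and 3 red blood cell markers was called by limma (0 and 2 at an unadjusted p under 0.05, and 0 and 1 by the lognormal-normal model). Their part in the members' differences was not tested.

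Genes that work with the respiratory chain were followed from lists of related pathways. Mitochondrial fatty acid oxidation had 11 of 16 genes lower and 1 higher at 3 days (median -0.55), led by Acadm, medium-chain acyl-CoA dehydrogenase (-1.36, limma adjusted p = 2.99e-06), and Echs1 (-0.9, adjusted p = 4.24e-06). Of 15 genes of pyruvate dehydrogenase and the citric acid cycle, 8 fell and none rose (median -0.4), with Idh3b at -0.84 and Idh2 at -0.6 (limma adjusted p = 0.00018 and 0.000521). In both lists the calls were mainly lower, as among the subunits. Among 9 genes of adenylate and phosphate exchange 4 fell (median -0.2), of which the mitochondrial creatine kinases Ckmt2 (-1.73, limma adjusted p = 6.16e-06) and Ckmt1 (-0.91, adjusted p = 0.00139) differed most. Of 28 other assembly factors and electron carriers 7 fell (median -0.14), led by Cox10, of the pathway to heme a, and Etfb of the electron transfer flavoprotein (both -0.71, limma adjusted p = 0.0031 and 0.0238). Of 19 regulators of mitochondrial biogenesis 7 fell and 3 rose (median -0.11). Perm1, a regulator of muscle mitochondria, fell by 2.58 (limma adjusted p = 4.53e-06) and Ppargc1a, the coactivator PGC-1 alpha, by 1.05 (adjusted p = 0.00453).

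Few ribosomal genes were called. None of 73 mitochondrial ribosomal genes was called at 3 days by limma (3 at an unadjusted p under 0.05, 0 by the lognormal-normal model), with a median of -0.07. Of 49 cytosolic ribosomal genes 1 rose and 2 fell (median 0.01), and the larger fall was that of Rpl3l, the form of striated muscle (-2.21, limma adjusted p = 6.09e-05). In 3-day PI replicate 5 and 60-day PI replicate 4 the mitochondrial ribosomal median was -0.76 and -0.88 relative to the control arrays, but -0.14 in 14-day control replicate 3, and the cytosolic median was -0.18, -0.2 and -0.2 in the same order as first named. At 14 days none of the genes of these 5 metabolic and 2 ribosomal lists was called by limma or by the lognormal-normal model, with 0 to 2 genes of each list at an unadjusted p under 0.05.

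Cultured naive fibroblasts had lower members than the mucosa of 60-day controls, rats of the same age. Of the 90 members 49 were lower (54.4%) and 3 higher, where 26.1% of all genes were called lower and 36.1% higher, and the median was -0.58 against 0.12 over all genes. The muscle forms differed most, with Cox8b 51.6-fold lower (difference -5.69, SE 0.81, limma adjusted p = 4.52e-07; 29.4-fold without naive replicate 2 and 77.7-fold without replicate 3), Cox6a2 33.6-fold lower (-5.07, SE 0.53, adjusted p = 1.45e-09) and Cox7a1 5.05-fold lower (-2.34, SE 0.41, adjusted p = 1.51e-05). Ndufs7 (-1.49), Sdhd (-1.42) and Ndufv1 (-1.15) were lower as well, whereas the common forms Cox4i1 (-0.19), Cox6a1 (0.2) and Cox8a (-0.16) were not called. Another common form, Cox6b1, was called lower (-0.53, limma adjusted p = 0.0435), and under 4 of 10 alternatives. The members that were higher were Ndufaf1 (0.71, limma adjusted p = 4.87e-05), Cox6c-ps1 (0.59, adjusted p = 0.000875) and Sdhaf2 (0.29, adjusted p = 0.0287). Of the muscle markers 28 of 29 were lower in the cultures, with a median of -5.48. Culture, cell types and the amount of RNA labeled differ together here and cannot be told apart.

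This difference and that of 3-day injury share no array. Across the 90 members they correlated with Pearson's r of 0.69 and Spearman's rho of 0.67, and without the 3 muscle forms with 0.59 and 0.64, against 0.29 and 0.3 over all genes. With the 3-day difference taken without the 3 arrays, r was 0.65 and rho 0.75 over the 90. Members are not independent of each other, and the arrays of both comparisons hold mixtures that differ in muscle. All 22 members that fell at 3 days were among the 49 lower in fibroblasts (44.9% of the 49). Over all genes, 57.0% of those that fell at 3 days were lower in fibroblasts, and 26.2% the other way round.

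**Figure D4:**
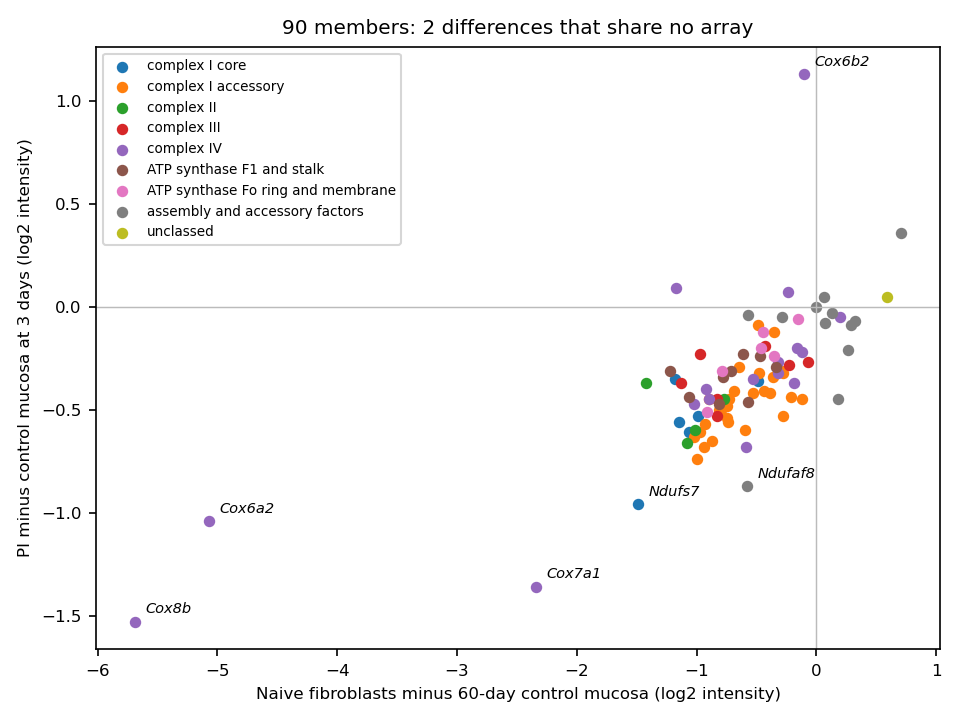
Difference of each of the 90 members between naive fibroblasts and 60-day control mucosa (x axis) and between PI and control mucosa at 3 days (y axis), both in log2 intensity and colored by class. Most points lie below 0 on both axes, with Cox8b, Cox6a2 and Cox7a1 farthest from 0 and Cox6b2 alone at the top.

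Between scar and naive fibroblasts the differences of most members were small, and more of them lay above 0 than below. By limma 2 of the 90 rose and none fell, against 5.47% of all genes, and 22 members had an unadjusted p under 0.05. The median was 0.08, with 70 members above 0 and 20 below. Scar and naive arrays did not overlap for 28 members (31.1%), against 18.5% of all genes. Both called members were forms linked to low oxygen. Cox4i2 stood at 6.51, 6.89 and 5.89 in naive cultures and at 7.56, 8.49, 7.68 and 7.14 in scar cultures, 2.44-fold higher and without overlap (difference 1.29, SE 0.29, limma adjusted p = 0.026). Ndufa4l2, the other form of Ndufa4, stood at 5.72, 5.72 and 5.95 in naive and at 6.98, 6.74, 6.04 and 6.68 in scar cultures, 1.76-fold higher and again apart (difference 0.81, SE 0.2, limma adjusted p = 0.041). Neither was called when the 7 arrays were fitted alone (adjusted p = 0.123 and 0.113), with a replicate block (adjusted p = 0.068 and 0.208) or by the lognormal-normal model, and at most 1 of them was called without any single array. Dividing-cell markers were higher in scar cultures as well (8 of 10, median 1.65), and their part was not tested.

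Cox6a2 and Cox8b varied between cultures of 1 group. Scar replicate 1 had 10.21 for Cox6a2, where the other 3 scar cultures had 7.25 to 8.04. Cox8b stood at 10.12, 5.93, 8.17 and 5.8 in the scar cultures and at 7.95, 5.88 and 8.69 in the naive ones. Relative to the mucosa controls, the median of the immature muscle markers was 3.86, -0.89, 2.52 and -0.09 in the scar cultures and 1.36, -1.17 and 1.99 in the naive ones, so that the cultures with Cox8b between 7.95 and 10.12 had medians above 0 and those between 5.8 and 5.93 had medians below 0. With 3 and 4 cultures no test of that relation was made.

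**Figure D5:**
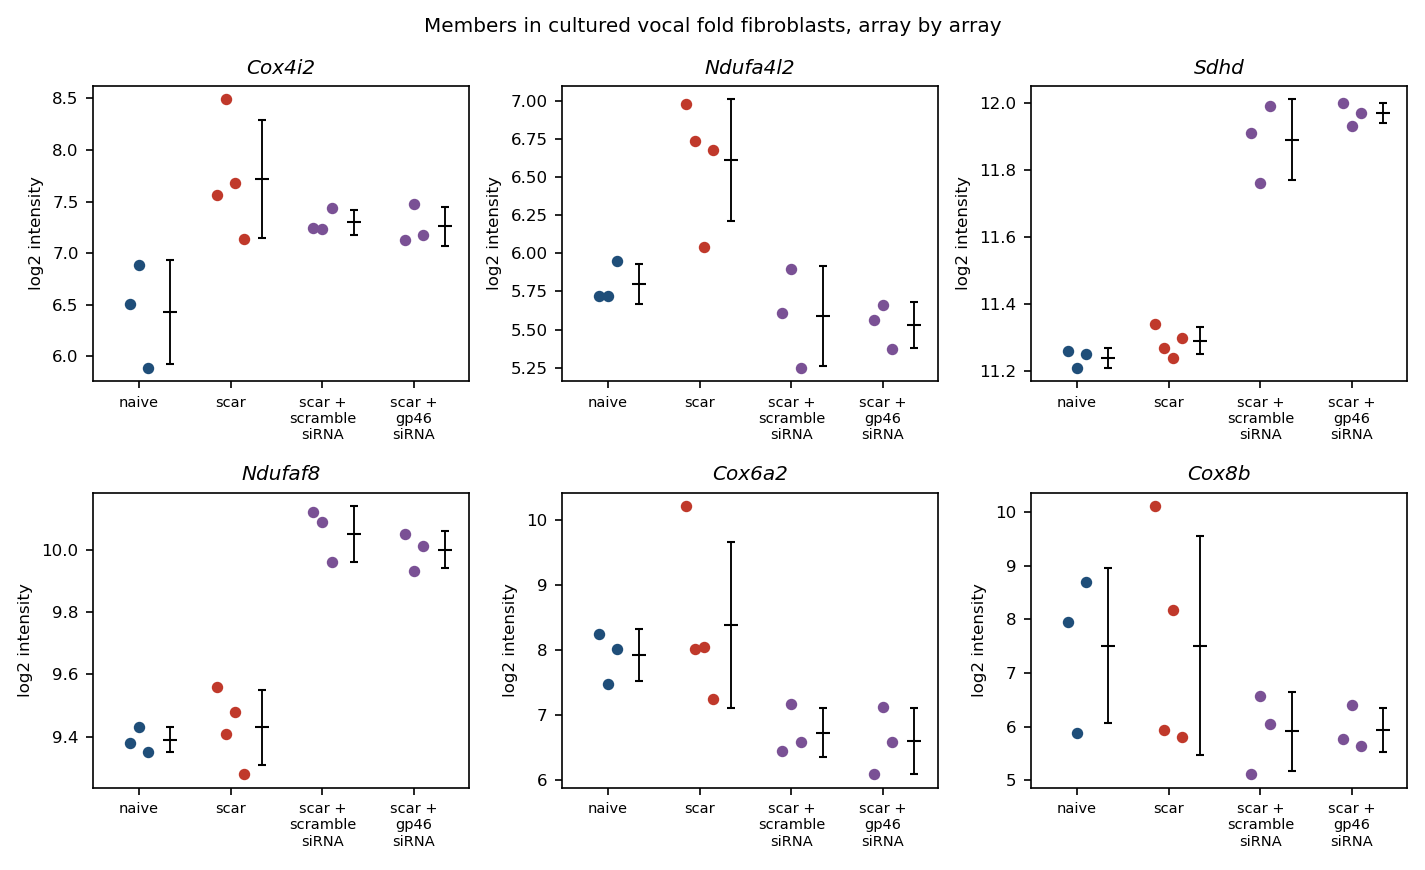
Log2 intensity (y axis) of 6 members in each fibroblast array, by group (x axis), with group mean and SD as black bars. Cox4i2 and Ndufa4l2 are higher in all 4 scar cultures than in the 3 naive ones, and Sdhd and Ndufaf8 are higher in all siRNA-treated cultures than in the untreated ones.

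Scar fibroblasts exposed to gp46 siRNA did not differ from those exposed to scramble siRNA in any member by limma or by the lognormal-normal model (1 member at an unadjusted p under 0.05), with 0.0% of all genes called. The differences lay between -0.13 and 0.28. With a replicate block the count was 0 as well.

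Between scramble siRNA and untransfected scar cultures, members differed in both directions, as did all genes. Whether the members' shares differ from those of all genes was not tested. The exposure, the culture time after it and the rats the cultures came from cannot be told apart here. Against untransfected scar fibroblasts, 21 of the 90 members rose and 10 fell (23.3% and 11.1%), where 16.5% and 13.6% of all genes did, and the median was 0.02. Sdhd stood at 11.91, 11.76 and 11.99 after scramble siRNA and at 11.34, 11.27, 11.24 and 11.3 without it, a rise of 0.6 with no overlap (SE 0.06, limma adjusted p = 4.5e-05). The assembly factors Ndufaf8 and Ndufaf1 rose by 0.62 and 0.58 (limma adjusted p = 0.000105 and 0.00124), and Cox5a rose by 0.42 (adjusted p = 0.0106). Ndufa4l2 fell by 1.02 (SE 0.2, limma adjusted p = 0.00285), to 5.61, 5.9 and 5.25, where the naive cultures had 5.72 to 5.95. Sdhaf4, which helps to assemble complex II, fell by 0.39 (limma adjusted p = 0.00478) and Atp5f1e, the epsilon subunit of F1, by 0.36 (adjusted p = 0.00586).

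Cox6a2 fell by 1.65 (SE 0.55, limma adjusted p = 0.0415), by 1.04 without scar replicate 1 (adjusted p = 0.0317), and was called under 7 of 15 alternatives. The replicate block left 4 of the 31 calls: Sdhd, Ndufaf8, Ndufaf1 and Ndufa4l2. All 10 dividing-cell markers (median 2.66) and 32 of 73 mitochondrial ribosomal genes rose in the same comparison, with 4 of the latter lower, and their part in the members' changes was not tested.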

How the data were processed

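Total RNA of 36 samples was hybridized to Affymetrix rat genome arrays. The authors deposited log2 values that, per the labels and the methods, were summarized with RMA in the affy package. Ranked values were nearly the same on every array (differences up to 0.03), so values show a gene's place among all RNA of the sample and not its amount per cell. The number of arrays limits the precision. The labels give 5 PI and 2 control arrays at 60 days, whereas the methods give 4 PI and 3 control arrays, the same total of 7. The labels were followed, and it cannot be told whether 1 array labelled PI was a control. Where nothing says otherwise, p-values measure the spread between these samples.

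Of 31042 probe sets, 20826 carried 1 symbol and stood for 14217 genes. Where a gene had several, the probe set of median mean intensity stood for it, following the methods. Another 7 probe sets of members matched several symbols and were left out. Tests were run in limma 3.58.1 (R 4.3.3), with 1 fit of 23 mucosa arrays, 1 of 13 fibroblast arrays, and 1 of all 36 for fibroblasts against mucosa. Isoform differences were tested by exact permutation in Python 3.11.15. A lognormal-normal model written for this work (20 iterations, posterior over 0.95) stood in for the study's EBarrays, and scripts were tested on simulated data. The gp46 and scramble cultures of the same number tended to deviate together (Pearson's r of 0.433, 0.176 and 0.472), so their numbers may pair them. The members and lists were chosen with earlier results of these data known. Named were the isoform pairs, the complex II subunits, the 3 called members of largest difference per class at 3 days (the 2 of highest mean where none was called), the 4 largest called rises and falls at 14 and 60 days and in fibroblasts, and 2 genes per other list. Members named beyond this were chosen after their values were seen. Alternatives were the probe set of highest mean, membership by current symbol, array centring, repeated quantile normalization, a filter on dim genes, array weights, pooled controls, the compared groups alone, a replicate block, and leaving out arrays. Figures were drawn with matplotlib 3.10.9.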

Additional observations from a re-analysis of the deposited data

Results flagged for a closer look

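Of 136 groups of 4 or 5 arrays tested over the 34 named members, 36 had a highest or lowest array farther from the rest than the limit of Dixon's test allows, where chance gives about 1 in 20. All but 3 of these lie on 2 arrays.

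In PI replicate 5 at 3 days, 16 members were lowest: Atp5f1c at 12.07, Atp5f1e at 12.17, Atp5mc3 at 13, Cox4i1 at 12.48, Cox6a1 at 11.78, Cox6b1 at 11.62, Cox6b2 at 5.5, Cox7a1 at 7.49, Cox8a at 12.09, Ndufa4 at 12.39, Ndufaf8 at 7.78, Ndufb10 at 11.17, Ndufb5 at 11.12, Ndufs7 at 10.43, Sdhaf4 at 8.28 and Sdhb at 11.32. In PI replicate 4 at 60 days, 17 members were lowest: Cox4i1 at 13.07, Cox5a at 8.76, Cox6a1 at 11.62, Cox6b1 at 12.31, Cox7a1 at 8.68, Cox8a at 12.46, Ndufa4 at 12.9, Ndufa9 at 11.56, Ndufaf8 at 9.03, Ndufb10 at 11.98, Ndufb5 at 12.06, Ndufv2 at 12.19, Sdhaf2 at 9.83, Sdhaf4 at 7.91, Sdhb at 12.13, Sdhc at 12.37 and Uqcrfs1 at 12.77. The others were the high Cox6b2 of 14-day PI replicate 4 (6.43), the high Cox8a of scar culture replicate 1 (13.07) and the low Ndufv2 of scar culture replicate 3 (11.82).

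The injury effect differed between times, by limma's test of that difference, for Cox8b at 14 against 3 days (1.81) and at 60 against 3 days for Cox8b (1.66), Sdha (0.87), Ndufa9 (0.8), Ndufv1 (0.67), Uqcrfs1 (0.56) and Atp5f1b (0.43).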

How the results depend on the processing

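At 3 days the members called, 24 as reported, were 58 with array weights, 39 without the 3 arrays that stood apart, 46 with the controls of the 3 ages pooled, 15 with the 3-day arrays alone, 5 by the lognormal-normal model and 7 to 30 without single arrays. Called members at 14 days were 0 without the 30% of genes of lowest mean and 0 to 1 without single arrays. At 60 days, and for 60 against 14 days and gp46 against scramble siRNA, every setting run gave 0. For 14 against 3 days the count of 1 became 4 with centred arrays, 3 with repeated quantile normalization, 33 with array weights, 7 without the 3 arrays and 0 to 7 without single arrays. For 60 against 3 days the 6 became 12 with centred arrays, 39 with array weights, 29 without the 3 arrays and 0 to 16 without single arrays. Across time the PI count of 47 became 71 without the 3 arrays and 37 to 68 without single arrays, and the control count became 4 with array weights. For scar against naive fibroblasts the 2 became 0 with these arrays alone or by the lognormal-normal model and 0 to 1 without single arrays. For scramble siRNA against scar the 31 became 20 with these arrays alone, 9 by the lognormal-normal model and 25 to 30 without single arrays, and for fibroblasts against mucosa the 52 became 68 with array weights, 54 with repeated quantile normalization and 40 to 49 without single arrays. Of the called differences of named members, 917 kept the call and 151 lost it over all settings, and none changed sign. Over all genes, 26.6% were called at 3 days as reported and 38.5% without the 3 arrays. For the other settings the shares of all genes are not given. A shift in these counts therefore need not be particular to the members. The cause of these shifts was not tested. The isoform differences at 14 days that lay near 0 changed sign without the 3 arrays (Cox6a -0.02, Cox8 -0.11, Ndufa4 0.02), with ranges of -0.03 to 0.09, -0.11 to 0.12 and -0.08 to 0.03 without single arrays. Background correction was not varied, since the values used here were already summarized.

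With a replicate block the count was 27 at 3 days, 1 at 14 days and 0 at 60 days, 0 for scar against naive fibroblasts, 4 for scramble siRNA against scar and 0 for gp46 against scramble siRNA. Outside the comparison of gp46 and scramble cultures, Pearson's r of same-numbered deviations was 0.31, 0.187 and -0.034 at 3 days and -0.134 to 0.093 at 14 and 60 days. It was 0.096 to 0.139 for scar and naive cultures and -0.134 to 0.048 for scramble and scar cultures. Because 0.31 and 0.187 exceed the lowest gp46 and scramble value of 0.176, r alone does not settle which samples were paired.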
